A study of Mus musculus with 8 samples.

Results

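The genes described here are 10 members of the circadian clock of the heart and of its first outputs, taken by name from a table of 18137 genes: the activators Arntl, Clock and Npas2, the repressors Per1, Per2 and Ciart, the nuclear receptors Nr1d1 and Nr1d2, and the output factors Dbp and Nfil3. RNA sequencing measured them in heart RNA from wild-type mice, with 4 samples from sedentary animals and 4 from animals that swam, in a series on the aging heart. All 10 were in the table and all 10 passed the filter on low values. The age, sex and strain of the mice, the part of the heart sampled, the training schedule and the time of day at which hearts were taken are all not given in the sources used here. GEO labels call the samples biological replicates without saying that each came from a separate mouse, so the p-values measure the spread between these samples.

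In a mammalian cell ARNTL (also called BMAL1) pairs with CLOCK, or with its relative NPAS2, and the pair switches on genes that carry E-boxes. Among these genes are Per1, Per2, Ciart, Nr1d1, Nr1d2 and Dbp. PER proteins and CIART hold the activators back, and the receptors encoded by Nr1d1 and Nr1d2 (REV-ERBα and REV-ERBβ) repress Arntl, Npas2 and Nfil3 through ROR elements. In mouse heart Arntl and Npas2 RNA therefore rise and fall in opposite phase to Nr1d1, Dbp and the Per genes over the day, so a single sample taken at an unknown hour can be read by the relation of one side to the other.

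No member passed the test between swimming and sedentary hearts. Limma, fitted over all 11674 genes with a mean of at least 0.5 FPKM (fragments per kilobase of transcript, scaled to library size), called 0 of the 10 members at an adjusted p below 0.05, against 0.0171% of all genes tested (2 genes, both higher). At an unadjusted p below 0.05 it found 3 members, Nfil3, Ciart and Dbp, against 7.37% of all genes. The smallest adjusted p among members was 0.608, for Nfil3. Nfil3 was also the 1 member whose groups did not overlap, which held for 4.82% of all genes tested (3.24% with swimming higher and 1.58% with swimming lower). Of the 24 transcripts of these genes in the table, 16 passed the filter and 0 were called over all transcripts, against 0.0531% of all transcripts tested, 0.0265% in each direction. Nfil3-201, the transcript of that gene, was the 1 member transcript without overlap, beside 2.6% of transcripts with swimming higher and 1.4% with swimming lower. Of the log2 fold changes 5 were positive and 5 negative, with a median of -0.07 beside 0.03 over all genes. Each fold change given here was taken on log2(FPKM + 0.5), a scale that makes the changes of low genes look smaller. Since a heart is a mixture of cells, fewer cells of a type and less RNA per cell cannot be told apart.

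**Figure D1:**
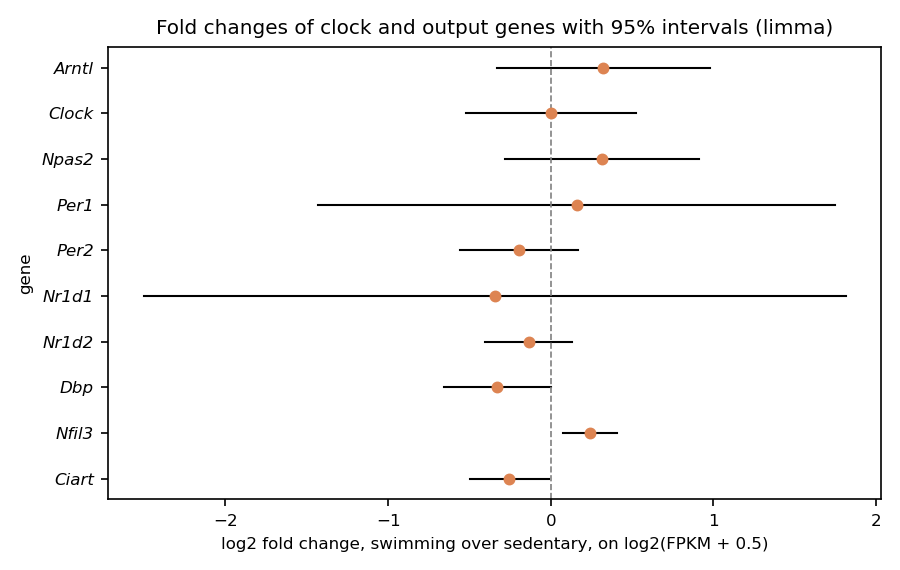
Log2 fold change of each clock and output gene, swimming over sedentary, on log2(FPKM + 0.5), with limma's 95% interval (n = 4 per group). The interval excludes 0 for Dbp, Nfil3 and Ciart before adjustment, and those of Per1 and Nr1d1 are the widest.

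Within the 10 genes the levels per transcript length ran from Nr1d2, at a mean of 32.8 FPKM over the 8 libraries, through Dbp (14.8 FPKM), Nr1d1 (7.68 FPKM), Per1 (7.41 FPKM), Clock (7.02 FPKM), Ciart (4.66 FPKM), Per2 (3.20 FPKM), Nfil3 (3.19 FPKM) and Arntl (2.30 FPKM) to Npas2 (1.42 FPKM). Every library had more Nr1d2 than any library had Dbp. All other neighbours in this order overlapped in their ranges. The members also differed in how much they varied between samples of a group. The within-group SD of log2(FPKM + 0.5) was 1.51 for Nr1d1, above that of 99.1% of the 2655 genes whose mean lay within 1.5-fold of its own. That of Per1 was 1.11 and exceeded 97.3% of the genes of like level. Nfil3, at 0.0822, lay at the other end and exceeded 9.26% of them.

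Of the activators, Arntl (ENSMUSG00000055116, chromosome 7, 113207465 to 113314126, plus strand, build mm10) encodes the partner of both CLOCK and NPAS2. It was listed at 1.17, 1.88, 2.77 and 2.05 FPKM in sedentary replicates 1 to 4 and at 2.90, 2.25, 1.47 and 3.91 FPKM in swimming replicates 1 to 4. Swimming replicate 4 was the highest and sedentary replicate 1 the lowest of the 8, and the groups overlapped. The means were 1.97 ± 0.655 and 2.63 ± 1.03 FPKM (SD, 4 libraries each), and the difference was 0.32 on the log2 scale with a 95% interval of -0.33 to 0.98 (limma adjusted p = 0.812). Arntl-201 carried nearly all of it in 7 libraries. In sedentary replicate 3, however, Arntl-206 was at 1.12 FPKM and at no more than 0.0784 FPKM elsewhere, so that Arntl-201 alone was at 1.65 FPKM there, 59.5% of the gene's sum.

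The Arntl promoter is printed because the gene is a known target of the nuclear receptors of the loop. The RefSeq window on GRCm38.p6 at chr7:113207261-113207560, plus strand, runs from 250 bases before a transcript start to 50 after it, with the core of a ROR element, TAGGTCA, in capitals.
Arntl promoter: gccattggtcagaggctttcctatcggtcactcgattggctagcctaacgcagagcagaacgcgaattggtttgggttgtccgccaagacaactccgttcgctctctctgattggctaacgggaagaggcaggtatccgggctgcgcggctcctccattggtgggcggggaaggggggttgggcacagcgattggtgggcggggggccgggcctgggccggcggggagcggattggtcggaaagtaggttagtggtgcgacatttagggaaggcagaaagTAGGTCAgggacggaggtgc
The capitals begin 30 bases after that start, at 113207541. The cores searched, TAGGTCA and TGGGTCA on both strands, were found in 6.45% of the 32851 RefSeq promoters of that length and in 2 of the 9 members that have one, Arntl and Nfil3. The window of the other RefSeq start of Arntl ends before this match.

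Npas2 (ENSMUSG00000026077, chromosome 1, 39193731 to 39363236, plus strand) encodes the relative of CLOCK that can take its place. Its levels were 1.06, 0.938, 1.395 and 1.27 FPKM in sedentary replicates 1 to 4 and 2.33, 1.34, 0.771 and 2.22 FPKM in swimming replicates 1 to 4. Swimming replicates 1 and 4 stood above the other 6 libraries, while swimming replicate 3 was the lowest of all. Swimming over sedentary, the log2 difference was 0.31, with an interval of -0.28 to 0.91 (limma adjusted p = 0.797). The excess in the 2 highest libraries sat largely in Npas2-203, an annotated transcript of 3 exons and 484 bases, at 1.14 FPKM in each of them and at 0.0515 to 0.456 FPKM in the other libraries. The full-length Npas2-201 ranged from 0.750 to 1.22 FPKM in sedentary and from 0.625 to 1.20 FPKM in swimmers (log2 difference 0.0032, limma adjusted p = 0.999 over all transcripts).

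Clock (ENSMUSG00000029238, chromosome 5, 76209868 to 76304792, minus strand), the other partner of ARNTL, did not follow Arntl. It was listed at 8.96, 5.97, 4.99 and 8.14 FPKM in sedentary and at 7.74, 9.35, 5.43 and 5.56 FPKM in swimming replicates 1 to 4. The group means were 7.02 ± 1.85 and 7.02 ± 1.88 FPKM, with a log2 fold change of 0.0010 and an interval of -0.52 to 0.53 (limma adjusted p = 0.999). Clock-204 made up the larger part in every library, between 53.2% and 85.2% of the gene, and Clock-205 most of the rest. The annotated start of Clock-204 lies inside the gene, at 76274012, downstream of that of Clock-205.

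**Figure D2:**
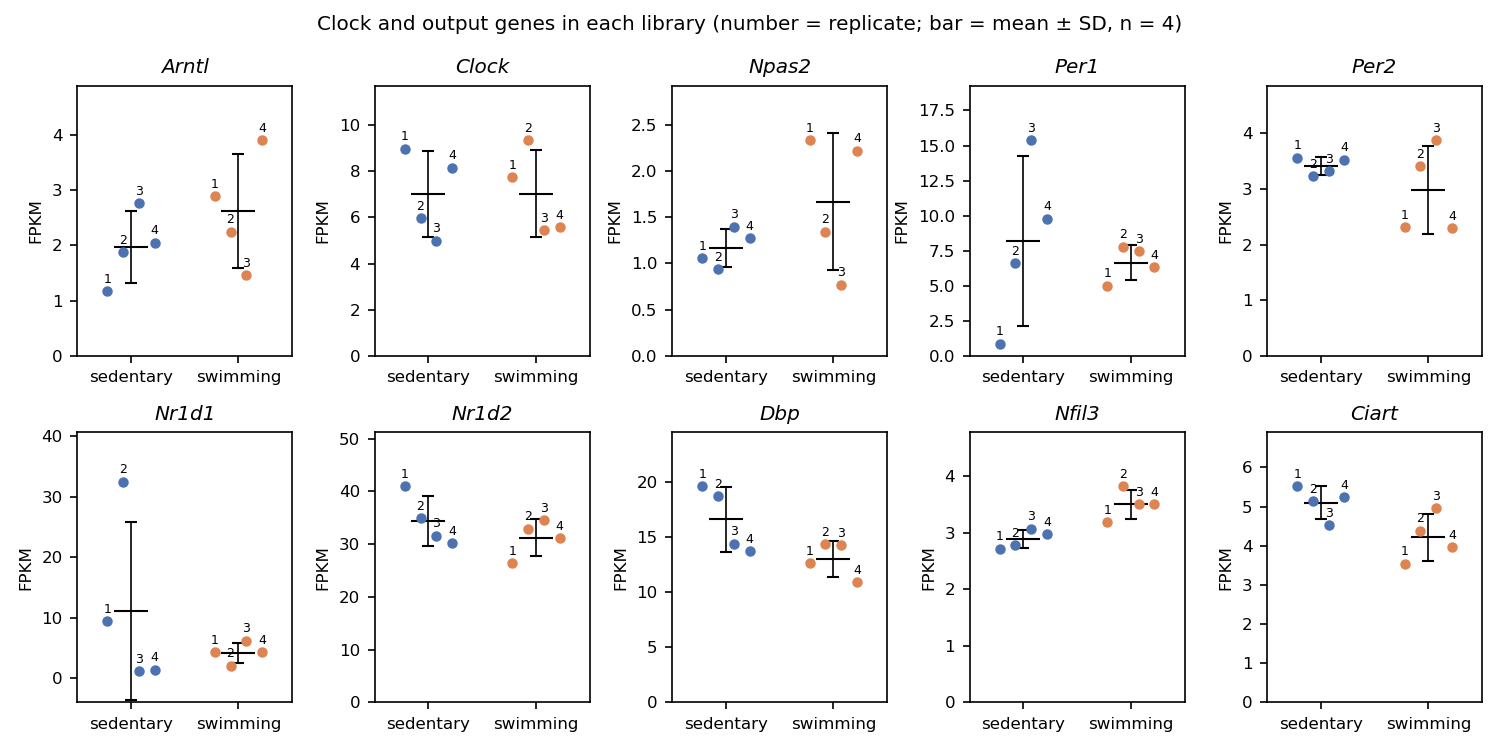
FPKM of each of the 10 genes (vertical axis, from 0 except where the error bar reaches below it) in sedentary (blue) and swimming (orange) libraries, with the replicate number beside each point and bars for mean ± SD (n = 4). In Nfil3 all swimming points lie above all sedentary ones, Nr1d1 has 1 sedentary library at 32.5 FPKM, and Per1 spans 0.877 to 15.4 FPKM.

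The repressor genes differed in their spread. Per2 (ENSMUSG00000055866, chromosome 1, 91415982 to 91459324, minus strand), a core inhibitor of ARNTL and CLOCK, had values of 3.56, 3.23, 3.33 and 3.53 FPKM over sedentary replicates 1 to 4. In swimming replicates 1 to 4 it was at 2.32, 3.41, 3.88 and 2.30 FPKM. Swimming replicates 1 and 4, the libraries with the most Npas2, had the least Per2, and swimming replicate 3, with the least Npas2, had the most. Per2 had a log2 fold change of -0.20, with an interval of -0.56 to 0.16 (limma adjusted p = 0.791).

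Ciart (ENSMUSG00000038550, chromosome 3, 95878503 to 95882251, minus strand), also called Chrono, encodes a repressor that binds ARNTL. It was at 5.51, 5.14, 4.53 and 5.24 FPKM in sedentary and at 3.54, 4.39, 4.97 and 3.97 FPKM in swimming replicates 1 to 4. Swimming replicates 1 and 4 were again the 2 lowest, and swimming replicate 3 lay within the sedentary range. Its log2 fold change was -0.26 (SE 0.106, interval -0.50 to -0.01, limma unadjusted p = 0.0428 and adjusted p = 0.665). Of its transcripts, Ciart-202 ranged from 0.529 FPKM in swimming replicate 4 to 2.37 FPKM in sedentary replicate 2, Ciart-201 from 0.872 to 2.65 FPKM, and Ciart-205 kept between 1.14 and 1.43 FPKM.

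The Ciart promoter is shown beside one of Per1 because both are known targets of the activator pair and hold the E-box CACGTG, in capitals. The windows are chr3:95882179-95882478, minus strand, for Ciart and chr11:69098699-69098998, plus strand, for Per1 (RefSeq, GRCm38.p6), each from 250 bases before to 50 after a start.
Ciart promoter: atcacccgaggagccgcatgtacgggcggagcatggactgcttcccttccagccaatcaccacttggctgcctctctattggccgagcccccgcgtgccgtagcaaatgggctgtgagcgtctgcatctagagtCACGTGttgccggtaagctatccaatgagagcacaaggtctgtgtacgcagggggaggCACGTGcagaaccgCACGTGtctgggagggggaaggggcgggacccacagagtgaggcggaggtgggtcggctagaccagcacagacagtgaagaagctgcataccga
Per1 promoter: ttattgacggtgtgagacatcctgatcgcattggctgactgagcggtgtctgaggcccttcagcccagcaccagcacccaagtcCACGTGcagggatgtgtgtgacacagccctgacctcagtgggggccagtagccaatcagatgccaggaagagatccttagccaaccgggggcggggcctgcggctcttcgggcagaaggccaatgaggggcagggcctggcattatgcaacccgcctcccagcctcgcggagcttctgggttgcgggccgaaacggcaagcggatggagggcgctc
Ciart held 3 copies, at 116, 58 and 44 bases before the start, and Per1 held 1 at 166 bases before it. The E-box was in 7.15% of all promoters of this length. Among the 13 windows of the 9 members that have one, the 2 printed here held it. The window of the other RefSeq start of Per1 did not. CACGTT or its complement, the noncanonical E-box, was in 4.68% of promoters and in that of Nr1d1. The D-boxes TTATGTAA and TTACGTAA were in 1.06% of promoters and in none of the members' windows. A match describes letters in these windows only. Of Per2 no promoter is printed.

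Per1 (ENSMUSG00000020893, chromosome 11, 69095217 to 69109960, plus strand) is both a clock repressor and a gene that glucocorticoids and CREB induce within a short time. It was listed at 0.877, 6.60, 15.4 and 9.79 FPKM in sedentary and at 5.01, 7.78, 7.48 and 6.33 FPKM in swimming replicates 1 to 4. The sedentary libraries thus held both the lowest and the 2 highest values, and all swimming libraries lay between them. Per1 had a log2 fold change of 0.16, with an interval of -1.43 to 1.75 (limma adjusted p = 0.968), and without sedentary replicate 1 it was -0.57. Its transcripts alternated between libraries. Per1-203 was listed at 0 in sedentary replicates 1 and 3 and swimming replicates 2 and 4 and at 3.16 to 6.80 FPKM in the other 4 libraries. Per1-201 was at 14.0, 5.79 and 4.42 FPKM in sedentary replicate 3 and swimming replicates 2 and 4, and did not exceed 0.975 FPKM in the remaining 5. In sedentary replicate 1 both were near 0, at 0.00403 and 0 FPKM, and Per1-202 held 90.5% of what was listed. Assembled transcripts without a gene name are not in these sums, and whether any of that library hold Per1 reads was not tested.

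**Figure D3:**
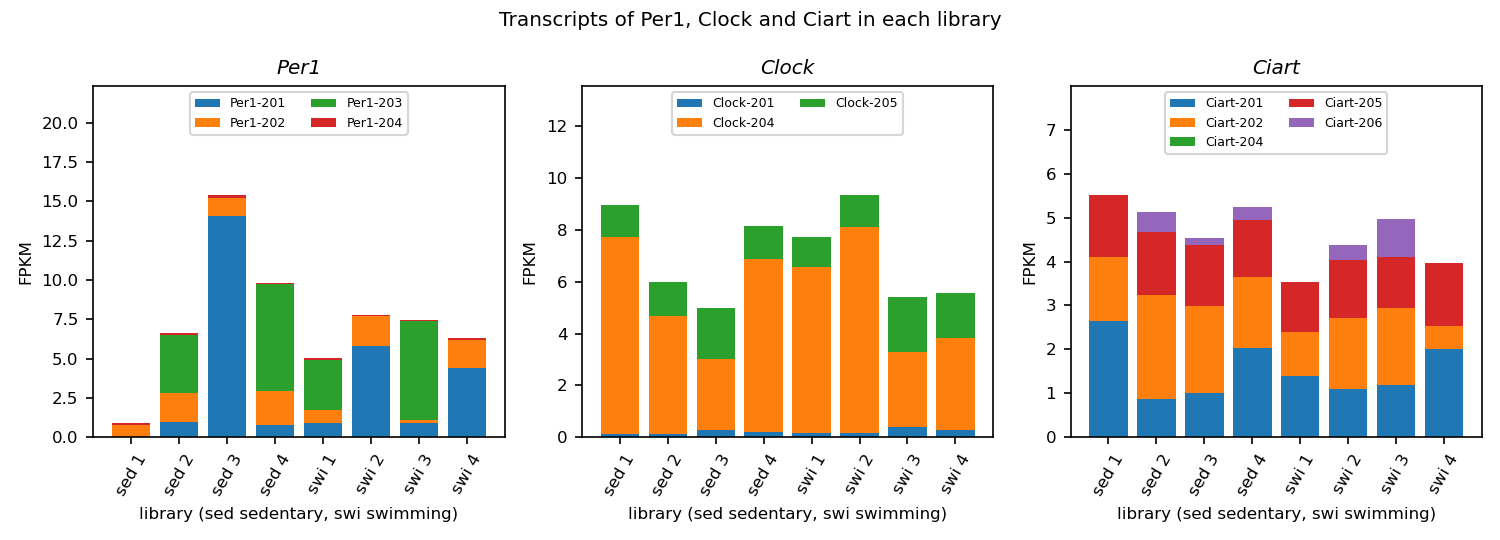
Stacked FPKM of the annotated transcripts of Per1, Clock and Ciart in each library (sed, sedentary; swi, swimming; number, replicate). Per1-201 and Per1-203 alternate between libraries and are both near 0 in sedentary replicate 1, whereas Clock-204 is the larger part of Clock in all 8.

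Of the acute inputs to the Per genes, Nr4a1, Egr1 and Fos were highest in the libraries with the most Per1. Their list of 10 such genes, responsive to glucocorticoids or to CREB and serum response factor, had 0 calls over all genes, 0 at an unadjusted p below 0.05, and 7 of its fold changes were negative and 3 positive (median -0.25 on the log2 scale). The orphan receptor gene Nr4a1 was at 32.2 and 19.0 FPKM in sedentary replicates 3 and 4, the libraries with the most Per1, and at 1.29 to 3.63 FPKM elsewhere. Egr1, an immediate-early zinc finger gene, was at 52.0 and 7.61 FPKM there and at 2.47 to 3.27 FPKM elsewhere. Fos was at 10.1 and 1.22 FPKM against 0.309 to 1.01 FPKM. Their part in the Per1 values was not tested. Fkbp5, a classical glucocorticoid target, had another order: it was at 5.82 FPKM in sedentary replicate 1 but at no more than 0.688 FPKM in sedentary replicates 2 to 4, and at 0.138, 4.48, 10.9 and 3.90 FPKM in swimming replicates 1 to 4 (log2 fold change 1.28, interval -1.03 to 3.58, limma adjusted p = 0.788).

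The nuclear receptor genes differed most in their spread. Nr1d2 (ENSMUSG00000021775, chromosome 14, 18204054 to 18239127, minus strand) was at 40.9, 34.9, 31.6 and 30.3 FPKM in sedentary and at 26.5, 32.9, 34.6 and 31.1 FPKM in swimming replicates 1 to 4. Nr1d2 had a log2 fold change of -0.13, with an interval of -0.40 to 0.13 (limma adjusted p = 0.805). Its lowest library, swimming replicate 1, was the one with the most Npas2, and its highest, sedentary replicate 1, the one with the least Arntl. Swimming replicate 4, with the most Arntl, was at 31.1 FPKM, and swimming replicate 3, with the least Npas2, at 34.6 FPKM. Neither was an end of the Nr1d2 range.

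Nr1d1 (ENSMUSG00000020889, chromosome 11, 98767932 to 98775333, minus strand), with 1 transcript in the table, was at 9.40, 32.5, 1.18 and 1.42 FPKM in sedentary and at 4.37, 2.11, 6.20 and 4.27 FPKM in swimming replicates 1 to 4. Sedentary replicate 2 was 27.7 times sedentary replicate 3, so the sedentary samples alone spanned the whole range. Its log2 fold change was -0.34 with an interval of -2.50 to 1.82 (limma adjusted p = 0.947), and 0.50 without sedentary replicate 2. Its paralog Nr1d2 differed by 1.55-fold between its highest and lowest library. Exons at the 3′ end of Nr1d1 overlap those of Thra, the thyroid hormone receptor gene on the opposite strand, over 263 bases. Thra was at 13.0 to 19.9 FPKM in the 8 libraries, 14.8 FPKM in sedentary replicate 2, and the part of shared reads was not tested.

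Of the output factors, Dbp (ENSMUSG00000059824, chromosome 7, 45705088 to 45710203, plus strand) encodes a PAR bZIP activator of D-box genes and is one of the most strongly cycling genes of mouse tissues. It was at 19.6, 18.7, 14.4 and 13.7 FPKM in sedentary and at 12.6, 14.4, 14.2 and 10.9 FPKM in swimming replicates 1 to 4. Sedentary replicates 1 and 2 lay well above every swimming library, sedentary replicate 3 was level with the highest of them and sedentary replicate 4 lay among them. Its log2 fold change was -0.33 (SE 0.141, interval -0.66 to -0.0014, limma unadjusted p = 0.0492 and adjusted p = 0.671). Dbp-201 held 84.7% to 90.8% of it. Exons of Dbp overlap those of Sphk2 on the opposite strand over 539 bases, and Sphk2 was at 0.864 to 4.55 FPKM.

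Nfil3 (ENSMUSG00000056749, chromosome 13, 52967209 to 52981073, minus strand) encodes the repressor, also called E4BP4, that competes with DBP for D-boxes. It was at 2.72, 2.78, 3.07 and 2.97 FPKM in sedentary and at 3.19, 3.82, 3.50 and 3.51 FPKM in swimming replicates 1 to 4. Every swimming value was above every sedentary value. The difference was 0.24 on the log2 scale (SE 0.0729, interval 0.07 to 0.41, limma unadjusted p = 0.0111 and adjusted p = 0.608), and it stayed between 0.20 and 0.28 with each library left out in turn. Its promoter is printed as the member with a ROR core before the start, at chr13:52980990-52981289, minus strand (RefSeq, GRCm38.p6), with the complement of TAGGTCA in capitals, 12 bases before the start.
Nfil3 promoter: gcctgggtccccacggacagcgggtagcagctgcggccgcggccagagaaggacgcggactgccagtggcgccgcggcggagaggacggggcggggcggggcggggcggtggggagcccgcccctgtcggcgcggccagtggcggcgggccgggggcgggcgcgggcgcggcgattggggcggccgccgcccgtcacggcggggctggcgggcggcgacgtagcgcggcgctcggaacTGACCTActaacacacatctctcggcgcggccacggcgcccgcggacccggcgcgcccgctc

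The relation of Arntl and Npas2 to the opposite side of the loop was then read across the 8 libraries, in 8 correlations, chosen with earlier results of these data known, of log2(FPKM + 0.5) with exact two-sided permutation over all 40320 pairings. Of the 8 coefficients 6 were negative, and 3 passed after Benjamini-Hochberg adjustment over the 8. Arntl with Dbp had r = -0.81 (exact permutation p = 0.0174, adjusted p = 0.0464) and Spearman's rho = -0.71 (exact permutation p = 0.0576, adjusted p = 0.154). Arntl with Per2 had r = -0.81 (exact permutation p = 0.0142, adjusted p = 0.0464) and rho = -0.83 (exact permutation p = 0.0154, adjusted p = 0.123). Npas2 with Per2 had r = -0.92 (exact permutation p = 0.00565, adjusted p = 0.0452) and rho = -0.74 (exact permutation p = 0.0458, adjusted p = 0.154). With the adjustment taken over all 45 pairs of members instead, none of these 3 passed (exact permutation adjusted p of r = 0.109, 0.106 and 0.106). Npas2 with Dbp had r = -0.72 and rho = -0.57 and did not pass (exact permutation adjusted p = 0.0860 for r and 0.262 for rho). Over these samples, libraries with more Arntl thus had less Dbp and less Per2, and libraries with more Npas2 had less Per2.

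The calls rest on few samples. Without the 2 libraries farthest from the median of Arntl, sedentary replicate 1 and swimming replicate 4, r was -0.42 with Dbp (exact permutation p = 0.428, n = 6) and -0.74 with Per2 (exact permutation p = 0.0861, n = 6). Swimming replicates 1 and 4 held the 2 highest Npas2 values, apart from the rest. Over the other 6 libraries its r with Per2 was -0.53 (exact permutation p = 0.286) and with Dbp -0.35 (exact permutation p = 0.447). The call of Npas2 with Per2 rests on those 2 libraries, whose loss also shortens the range of Npas2, while with any single library left out r was -0.96 to -0.87. With each value taken as its deviation from its group's mean, the coefficients were -0.80, -0.77 and -0.90 for Arntl with Dbp, Arntl with Per2 and Npas2 with Per2. None passed in exact permutation within groups (adjusted p = 0.120, 0.120 and 0.125). With rank correlation 0 of the 8 passed, and with the most abundant transcript of each gene, an alternative chosen after the values were seen, also 0. For Npas2-201 with Per2 r was then -0.61.

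**Figure D4:**
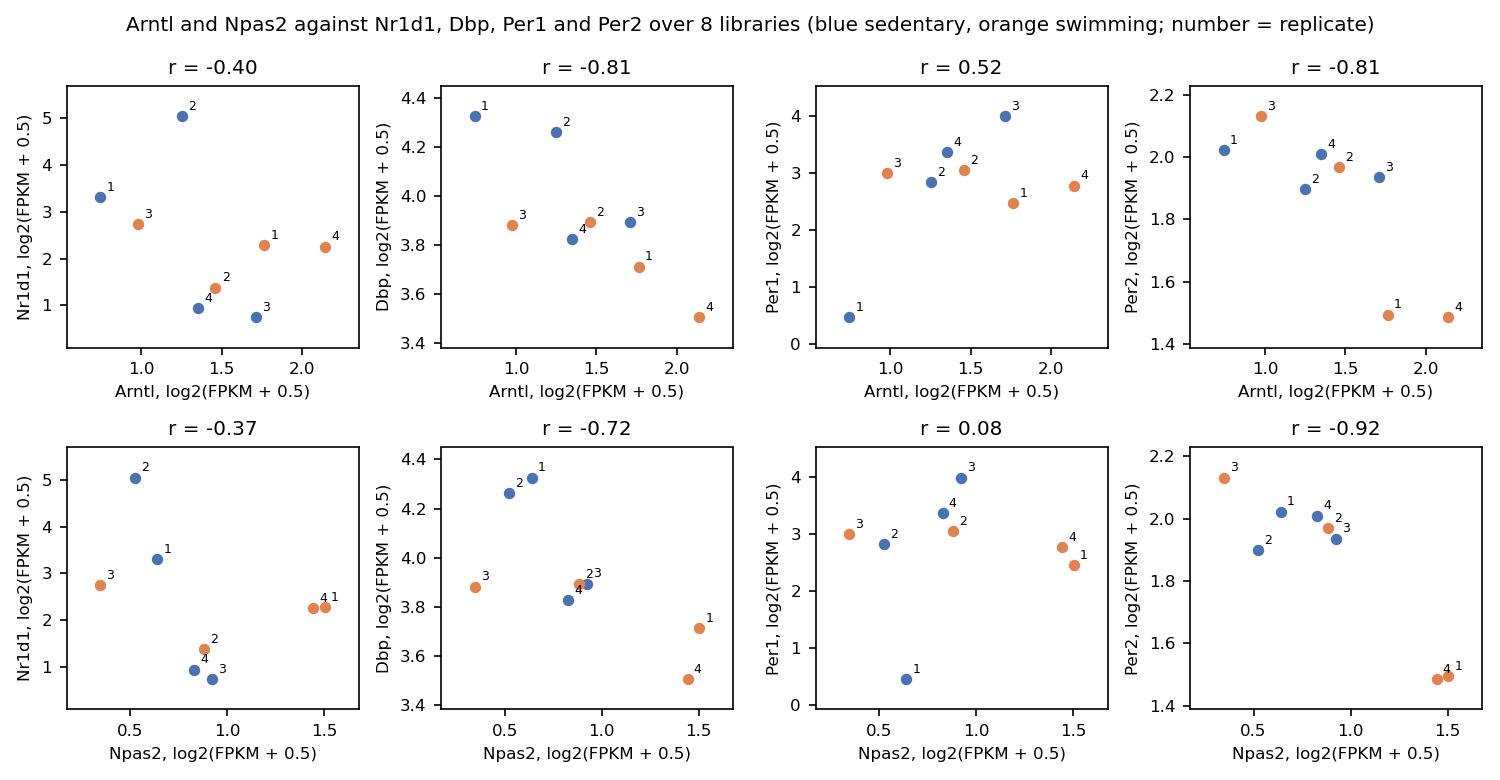
Arntl (upper row) and Npas2 (lower row) against Nr1d1, Dbp, Per1 and Per2, each as log2(FPKM + 0.5), 1 point per library with its replicate number, blue sedentary and orange swimming; each panel has its own axis range, which does not start at 0. Points fall from left to right for Dbp and Per2, with swimming replicates 1 and 4 at the lower right, and scatter for Nr1d1 and Per1.

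No relation with Nr1d1 or Per1 passed, and whether these coefficients differ from those with Dbp and Per2 was not tested. With Nr1d1, Arntl had r = -0.40 and rho = -0.55 (exact permutation adjusted p = 0.425 and 0.262) and Npas2 had r = -0.37 and rho = -0.52 (exact permutation adjusted p = 0.425 and 0.262). With Per1 they were r = 0.52 and rho = 0.12 for Arntl (exact permutation adjusted p = 0.303 and 0.882) and r = 0.08 and rho = -0.07 for Npas2 (exact permutation adjusted p = 0.854 and 0.882). Sedentary replicate 1, with the least Arntl and the least Per1, set the sign of r with Per1: without it r was -0.09 for Arntl and -0.31 for Npas2. Without the 2 libraries farthest from the median, r with Nr1d1 was -0.45 for Arntl and -0.73 for Npas2, and r with Per1 was 0.14 and 0.33.

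The same 8 values can be set beside all other genes as a description. An r with Arntl as low as that of Ciart (-0.82) was found in 0.754% of 11664 genes, as low as that of Dbp in 0.789%, as low as that of Per2 in 0.874% and as low as that of Nr1d2 (-0.76) in 1.57%. For Nr1d1 that share was 15.4%. Per1 and Nfil3 had a positive r with Arntl (0.52 and 0.42), and an r that high was found in 17.8% and 24.9%. Npas2 was as close to Arntl (r = 0.85) as 1.31% of genes, whereas an r as low as that of Clock (-0.33) was found in 19.4%. With Npas2, the r of Per2 was reached by 0.0686% of genes and that of Ciart (-0.87) by 0.360%. All of these points share the 8 libraries.

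Per library, the log2 level of Arntl over Dbp was -3.58, -3.01, -2.18 and -2.48 in sedentary and -1.95, -2.43, -2.90 and -1.36 in swimming replicates 1 to 4. Sedentary replicate 1 was the lowest and swimming replicate 4 the highest, and the groups overlapped (-2.81 ± 0.616 against -2.16 ± 0.660, SD, n = 4). That of Arntl over Nr1d1 was -2.56, -3.79, 0.97 and 0.41 in sedentary and -0.52, 0.08, -1.77 and -0.11 in swimming replicates 1 to 4. By this ratio sedentary replicates 3 and 4 were the 2 highest, by the former swimming replicates 4 and 1, so the order of the libraries depended on the gene set against Arntl. The difference between the groups in these ratios was not tested.

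Among the other genes of the loop and the PAR bZIP family, 0 of 11 passed limma over all genes and 2 had an unadjusted p below 0.05, against 7.37% of all genes tested, with 5 positive and 6 negative log2 fold changes and a median of -0.07. Bhlhe40 (DEC1), an E-box repressor that the activators induce, was at 15.3 and 14.9 FPKM in swimming replicates 1 and 4 and at 23.1 and 23.2 FPKM in swimming replicates 2 and 3, just under the lowest sedentary value of 23.5 FPKM (log2 fold change -0.37, limma adjusted p = 0.671). Arntl2, a paralog of Arntl, averaged 0.668 ± 0.0831 FPKM in sedentary samples and 0.912 ± 0.173 FPKM in swimmers (SD, 4 libraries each; log2 difference 0.27, limma adjusted p = 0.671). The PAR bZIP genes Hlf and Tef had log2 fold changes of -0.32 and -0.92 (limma adjusted p = 0.725 for each), and Tef was at 3.75 and 6.44 FPKM in swimming replicates 4 and 2 and at 17.7 to 24.1 FPKM in the other 6 libraries. Cry2, a repressor gene, was highest in swimming replicates 1 and 4, at 10.05 and 10.7 FPKM against 6.96 to 9.06 FPKM. Cry2 is named for its likeness to Arntl over the 8 libraries (r = 0.82), which was seen in the data.

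**Figure D5:**
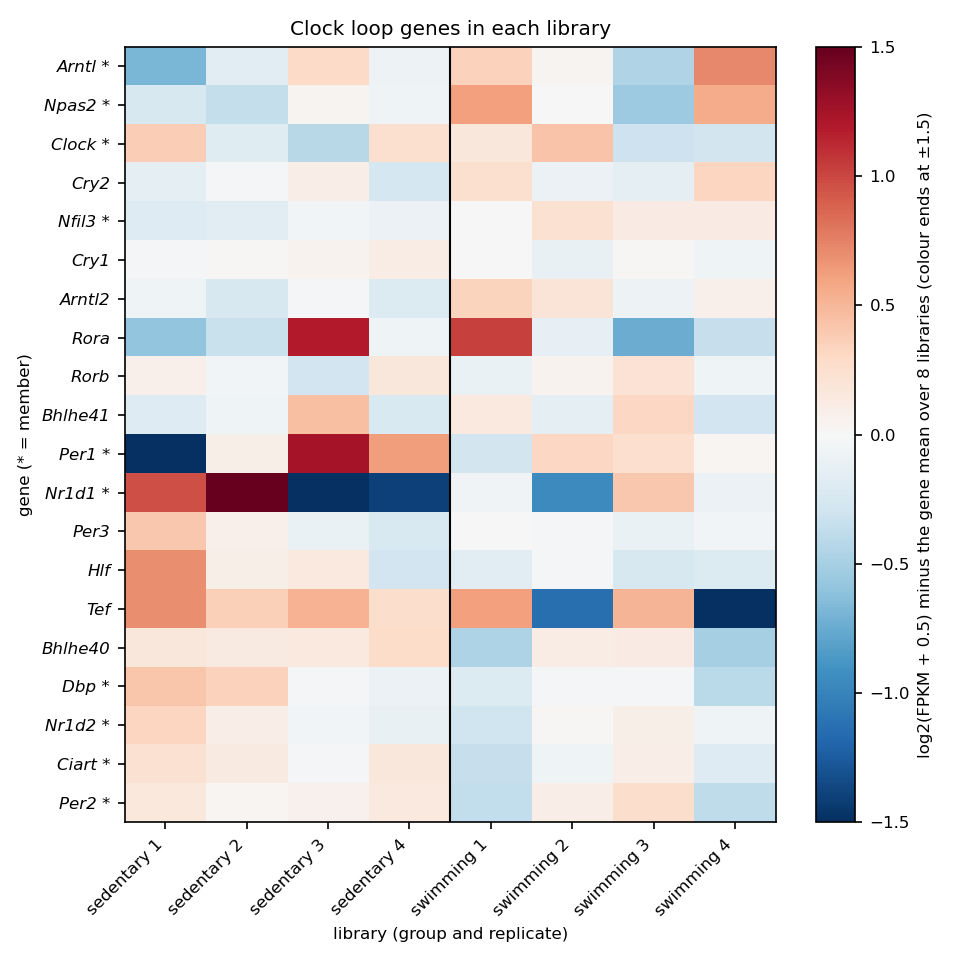
Members (marked with a star) and other loop and PAR bZIP genes (rows, ordered by hand after the values were seen) in each library (columns), as log2(FPKM + 0.5) minus the gene's mean over the 8 libraries, red above and blue below, with the colours ending at 1.5 in either direction. Swimming 1 and 4 are red in Arntl, Npas2 and Cry2 and blue in Bhlhe40, Dbp, Ciart and Per2, and sedentary 1 has the opposite colours in Arntl, Dbp and Ciart.

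Clock-controlled outputs had 0 of 13 calls over all genes and 4 at an unadjusted p below 0.05, and in these 4 the groups did not overlap. Over all genes tested the shares were 7.37% and 4.82%. Nampt, which encodes the rate-limiting enzyme of NAD salvage and is a target of the activator pair, was at 43.2 to 49.7 FPKM in the sedentary group and 52.96 to 61.2 FPKM in swimmers (log2 difference 0.29, interval 0.14 to 0.45, limma adjusted p = 0.536). Its 2 highest values were in swimming replicates 1 and 4. Coq10b, a coenzyme Q binding protein gene, was at 19.6 to 25.9 FPKM in the sedentary group and 14.8 to 18.7 FPKM in swimmers (log2 difference -0.45, limma adjusted p = 0.546), with its 2 lowest values in swimming replicates 4 and 1. Pdk4, whose product inhibits pyruvate dehydrogenase, was at 55.5 to 113 FPKM in the sedentary group and 116 to 170.4 FPKM in swimmers (log2 difference 0.91, limma adjusted p = 0.546). Lonrf3 was at 0.296 to 0.412 and at 0.430 to 0.947 FPKM (log2 fold change 0.59, limma adjusted p = 0.578). The list's median log2 fold change was 0.04, with 8 positive and 5 negative values.

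Kinases, ligases and cofactors that act on clock proteins gave 0 calls over all genes and 0 at an unadjusted p below 0.05 among 11 tested of 13. Csnk2a1 and Fbxl21 were below the filter. Among those with the smallest p were the deubiquitinase gene Usp2 (log2 fold change -1.70, interval -3.41 to 0.00, limma adjusted p = 0.671) and Fbxw11 and Btrc, which encode F-box proteins that mark PER for degradation (0.57 and 0.38, limma adjusted p = 0.702 and 0.719). The list's median was -0.04.

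The genes most like Arntl over the 8 libraries, among 10126 named genes with a mean of at least 1 FPKM, were Vps37b (r = 0.98), D10Jhu81e (0.98), Prdx2 (0.97), Chd3 (0.96) and Hdac11 (0.96). The most opposite were Hnrnph1 (-0.98), Agfg1 (-0.95), Zfp800 (-0.95), Usp31 (-0.94) and Ttc27 (-0.94). For Nr1d1 they were Gigyf2 (0.95), Sestd1 (0.94), Cept1 (0.93), Mbnl1 (0.92) and Prpf40b (0.92) on one side and Eva1a (-0.97), Rpl37a (-0.97), Psmg4 (-0.97), Sytl4 (-0.96) and Cdk2 (-0.96) on the other. None of these 20 is in the circadian lists, and with 8 libraries and so many genes, coefficients of this size are the extremes of a large set.

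The libraries differed in ways that touch these values. Cardiomyocyte markers (5 of 5 in the table) summed to 2938 to 4672 FPKM in sedentary and 4539 to 5636 FPKM in swimming samples. Actc1 was the largest of these markers in every library, at 1260 to 3331 FPKM in sedentary and 2975 to 3581 FPKM in swimming samples. Myh6, in contrast, ranged from 311 to 782 FPKM and from 252 to 760.04 FPKM. The 4 macrophage markers summed to 35.7 to 52.7 FPKM in sedentary and 55.0 to 63.5 FPKM in swimming samples, without overlap and with swimming higher, as for Nfil3. C1qa was the largest of them in 7 libraries. Each on its own, C1qa and Mrc1 did not overlap between the groups either, but Adgre1 and Csf1r did. Adgre1 was at 4.91 to 8.04 FPKM in sedentary and 6.23 to 7.38 FPKM in swimming samples. Csf1r was at 9.92 to 10.55 FPKM and at 10.48 to 12.37 FPKM. The 2 blood markers, nearly all Hbb-bs, summed to 214 to 876 FPKM, lowest in sedentary replicate 2 and swimming replicate 4. The 4 atrial markers summed to 27.1 to 105.7 FPKM in sedentary hearts. In swimming replicates 1 to 4 they summed to 120.4, 79.9, 66.3 and 125.5 FPKM. Nppa held most of that sum, and Myl7 was at 0.00401 FPKM or below in every library. The sum was highest in the 2 libraries with the most Arntl and Npas2. It was also high in sedentary replicate 1 (105.7 FPKM), which had the least Arntl. Myl4 and Sln had another order. Both were highest in swimming replicates 2 and 3, Myl4 at 6.96 and 5.13 FPKM and Sln at 1.55 and 0.769 FPKM. In swimming replicates 1 and 4 Myl4 was at 0.471 and 0.101 FPKM and Sln at 0.169 and 0.268 FPKM. The part of all these markers in the clock values was not tested. Sedentary replicate 4 held liver and adipocyte transcripts, with 29.8 and 18.8 FPKM over 4 markers each, against at most 0.579 and 0.899 FPKM elsewhere. Alb was at 0 in 4 and Adipoq in 3 of the other 7 libraries. Without that library no member was called either, and 0 of the 8 correlations passed (-0.83 and -0.82 for Arntl with Dbp and Per2 and -0.93 for Npas2 with Per2, smallest exact permutation adjusted p = 0.0571). Calls among the 8 were also 0 without swimming replicate 1, 2 or 4, and 1 to 2 without any other library.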

How the data were processed

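The deposited table holds FPKM per transcript for 8 libraries, scaled by the authors, per the file headers. Per the labels' protocols, ribosomal RNA was removed with RNase H and RNA was copied with random hexamers. The submitters' processing notes say that the build was mm10 and the tools included Salmon 0.8.2, HISAT2, featureCounts 1.4.6-p5 (Subread) and STAR 2.5.1a; their roles and the strand setting are not given in the sources used here.

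GENCODE M21 (mm10) named 45676 of 51169 transcripts, summed to 18137 genes. Assembled transcripts without a gene name held 11.3% to 12.5% of the FPKM of a library. FPKM totals were 210413 to 235461. Whole reads could not be recovered from the lowest values, so depth in reads is unknown; relative to the geometric mean of the libraries it was 1.64 in swimming replicate 2 and 0.871 to 1.00 in the others.

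Genes with a mean of at least 0.5 FPKM entered limma 3.58.1 (R 4.3.3) as log2(FPKM + 0.5) (trend, two-sided, Benjamini-Hochberg over all genes or all transcripts tested, threshold 0.05). The fit was tested on simulated data. Permutation tests ran in numpy 2.4.6 over the enumerated pairings, with ranks from scipy 1.17.1. Tables were made in pandas 2.3.3 and plots in matplotlib 3.10.9, all on Python 3.11.15. Alternatives covered the pseudocount, filter, scaling, library weights, variance model, replicate block and each library left out.

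The members and lists were chosen with earlier results of these data known. Named are all members, the 4 genes of each list with the smallest p, the 5 genes most and least like Arntl and Nr1d1, and transcripts with a mean of at least 0.5 FPKM that hold at least 10% of a member in any library; genes and transcripts outside this rule (Cry2, Arntl-206, Npas2-203, markers and overlapping genes) were picked with their values in view. Some genes of these lists are counted but not reported here by name.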

Additional observations from a re-analysis of the deposited data

Results flagged for a closer look

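In groups of 4, 1 library lay far from the other 3 by Dixon's ratio on log2(FPKM + 0.5) in 3 of 56 groups examined, where chance gives about 1 in 20. None of the 3 concerned a clock member. Usp2, a deubiquitinase gene under clock control, was at 3.05 FPKM in sedentary replicate 1 against 12.6 to 14.3 FPKM in the other sedentary libraries. It was at 11.9 FPKM in swimming replicate 2 against 1.20 to 1.46 FPKM in the other swimming libraries, so both groups held both levels. Lonrf3 was at 0.430 FPKM in swimming replicate 3 against 0.887 to 0.947 FPKM in the other swimming libraries.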

How the results depend on the processing

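No clock member, member transcript or gene of the 4 lists was called under any alternative run. Over all genes, 1 was higher with a pseudocount of 0.1 and 1 with quantile normalization, and 1 was lower with a pseudocount of 1. With each library left out in turn, 0 to 4 genes were higher and 0 to 2 lower. With the replicate number as a block 0 genes were higher and 0 lower, and the numbers do not pair the samples (correlations of same-numbered deviations -0.05 to 0.02). The block left 6 of 8 correlations negative. Calls among the 8 fell to 0 as deviations from the group means, 0 with Spearman's rho and 0 with the most abundant transcript, and were 0 to 2 with libraries left out, although at least 6 stayed negative under every setting run; the cause was not tested. The sign of a fold change near 0 turned in several cases. Clock was at -0.036 with median-of-ratios scaling, -0.024 with quantile normalization and -0.062 by its most abundant transcript. Per1 was at -0.033 with library weights. Npas2-201 was at -0.018, -0.033 and -0.018 with median-of-ratios scaling, quantile normalization and library weights, and Clock-204 at 0.030 with library weights. The rank correlation of Npas2 with Per1 was -0.071. With libraries left out, the log2 fold changes ran from -0.14 to 0.12 for Clock, -0.57 to 0.60 for Per1, -0.93 to 0.50 for Nr1d1 and Nr1d1-201, -0.079 to 0.12 for Npas2-201, -0.57 to 0.017 for Per1-202, -0.11 to 1.5 for Per1-201, -0.77 to 0.64 for Per1-203, -0.28 to 0.12 for Ciart-201, -0.052 to 0.20 for Clock-205 and -0.32 to 0.15 for Clock-204. Without a change of sign they ran from 0.14 to 0.52 for Arntl, 0.16 to 0.55 for Npas2, -1.27 to -0.46 for Tef and 0.72 to 2.10 for Fkbp5. The correlation with Per1 then ran from -0.091 to 0.67 for Arntl and from -0.31 to 0.19 for Npas2. The likeness of Prdx2 to Arntl was 0.82 with median-of-ratios scaling. The number of libraries limits all of these comparisons.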
